A study of Mus musculus with 24 samples.

Results

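miR-210-3p, listed on the arrays as mmu-miR-210-3p, is 1 of the 1881 mouse miRNAs measured, and was chosen by name as the miRNA best known for induction by low oxygen, not from its values. Hepatocytes of 3 male C57BL/6J mice aged 3 months, untreated, fed ad libitum and kept on a reverse light cycle, were separated into 8 sorted populations by 2 surface proteins, CD73 (a pericentral marker) and E-cadherin (a periportal one). They are named zone 1, the most pericentral, to zone 8, the most periportal. Each population held 50000 viable tetraploid cells freed of CD45+ and CD31+ cells, so hepatocytes of other ploidy are not represented. RNA of each zone of each mouse was hybridised to its own Agilent 1-colour array, which gave 24 arrays and 3 per zone. Each mouse had a slide to itself, on which zones 1 to 4 filled row 1 and zones 5 to 8 filled row 2, so mouse and slide cannot be told apart, and neither can lobule side and slide row.

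Transcription of the miR-210 gene is switched on by the hypoxia-inducible factor HIF1A, which accumulates when oxygen falls. Among the best-studied targets of miR-210-3p is the iron-sulfur cluster scaffold ISCU, whose repression lowers mitochondrial respiration. Blood in the liver lobule runs from the portal tract to the central vein and loses oxygen on the way, so pericentral hepatocytes live at lower oxygen than periportal ones. The zone comparison therefore asks whether miR-210-3p is higher at the pericentral end.

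The miR-210 precursor lies on mouse chromosome 7 at chr7:141221384-141221493, on the minus strand of GRCm38.p6, and overlaps no other gene of the RefSeq table. Its nearest neighbours there are Rassf7, 2725 bases to one side, and Gm51460, 6712 bases to the other. The hairpin of 110 bases is shown first because it yields both arms measured on the array. Capitals mark the 5p arm (bases 28 to 49) and the 3p arm (bases 66 to 87), which are separated by 16 bases. In the mature sequences below it, capitals mark the seed, bases 2 to 8, which pairs with target mRNAs. All are RefSeq sequences of GRCm38.p6, written 5′ to 3′.
Mir210 hairpin: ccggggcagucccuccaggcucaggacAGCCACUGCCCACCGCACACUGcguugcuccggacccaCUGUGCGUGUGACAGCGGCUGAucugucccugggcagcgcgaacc
miR-210-3p: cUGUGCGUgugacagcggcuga
miR-210-5p: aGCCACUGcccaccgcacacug

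No other miRNA of the RefSeq table carries the seed of miR-210-3p. Of the 1679 mature mouse miRNAs named in the RefSeq table, 0 others had the same bases 2 to 8, and 0 others had the same bases 2 to 7. Of the 1881 array miRNAs, 1608 have a RefSeq sequence in that table, and the seeds of the others were not examined. G and C made up 63.6% of its bases, against a median of 52.2% over the table's mature sequences.

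The 2 arms differed in detection. miR-210-3p was called detected on 16 of 24 arrays and miR-210-5p on 0 of 24, so only the 3p arm has values. The signal of one probe set cannot be set against that of another, and the difference is therefore one of detection calls and not of amounts.

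miR-210-3p lay close to the limit of detection wherever it was detected. Its deposited signal lay between 2.17 and 7.51 intensity units, which was 2.06 to 6.83 times the lowest detected signal of any miRNA on the same array. The error deposited with each detected value was 15.2% to 29.9% of the signal (median 24.4%), against a median of 11.2% over all detected values of the series. On arrays without detection the files list a signal of 0.1 and an error of 1.

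In mouse 3 miR-210-3p was detected in every zone. Its signal there, with the deposited error, was 3.20 ± 0.75 in zone 1, 7.51 ± 1.14 in zone 2, 5.39 ± 1.07 in zone 3 and 2.93 ± 0.74 in zone 4. In zones 5 to 8 of that mouse it was 5.57 ± 0.87, 3.05 ± 0.66, 2.60 ± 0.64 and 4.98 ± 0.90. Zones 2, 3, 5 and 8 of mouse 3 were the highest 4 of all 24 arrays, and they lie on both sides of the lobule's middle.

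Mouse 2 gave a flatter profile at a lower level. The signal was 3.43 ± 0.70 in zone 2, 2.61 ± 0.78 in zone 3 and 2.17 ± 0.65 in zone 4, with no detection in zone 1. On the periportal side it was 2.65 ± 0.72 in zone 6, 2.78 ± 0.67 in zone 7 and 2.83 ± 0.77 in zone 8, with no detection in zone 5. Each of these 6 values lies within the deposited error of at least 1 other of them.

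In mouse 1 miR-210-3p was detected in 2 zones, both pericentral. The signal was 2.95 ± 0.75 in zone 1 and 2.80 ± 0.75 in zone 3, and the other 6 arrays, among them all 4 of zones 5 to 8, had no detection. The plot of deposited signal by array shows these gaps beside the unbroken profile of mouse 3.

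**Figure D1:**
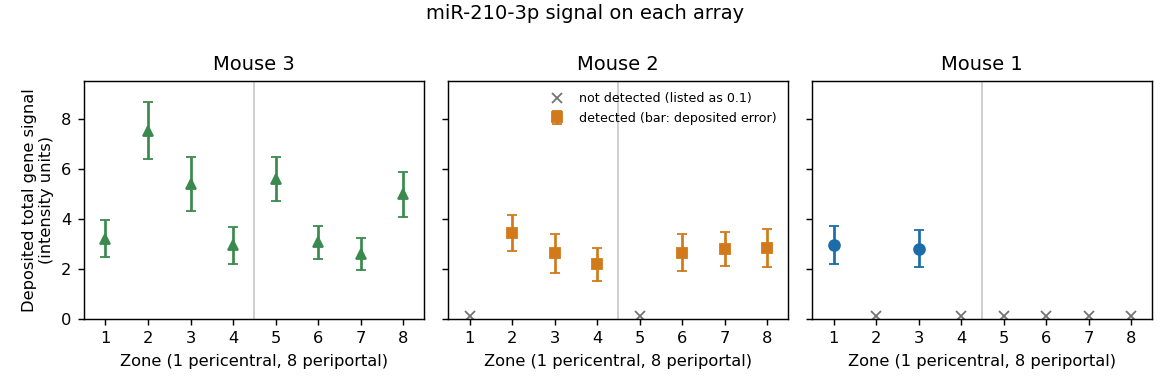
Deposited miR-210-3p signal (intensity units) against zone, 1 panel per mouse, with the deposited error as bars, crosses for arrays without detection and a vertical line between the slide rows. Detection was complete in mouse 3 (8 of 8 arrays), less so in mouse 2 (6 of 8) and lowest in mouse 1 (2 of 8).

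Detection calls differed by 2 arrays between the lobule's sides. In zones 1 to 4, 9 of 12 arrays detected miR-210-3p, against 7 of 12 arrays in zones 5 to 8 (exact permutation of zone labels within mice, two-sided p = 0.582). With so few calls free to vary within mice, no arrangement of them could have given a p under 0.05 in that permutation. Its p therefore decides nothing about the sides. By mouse these counts were 4 and 4 of 4 arrays in mouse 3, 3 and 3 in mouse 2, and 2 and 0 in mouse 1. The whole difference of 2 arrays thus came from mouse 1, and without that mouse 7 of 8 arrays stood on each side. By zone, miR-210-3p was detected in all 3 mice in zone 3, in 1 mouse in zone 5 and in 2 mice in each of the other 6 zones.

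For the comparison of levels, signals were scaled between arrays and values of undetected arrays were set to a floor of 1.12 scaled units before taking log2. Scaled detected signals of miR-210-3p ran from 2.35 to 5.85, a 2.50-fold span. The lowest of them, 1.23 on the log2 scale, stood above the floor at 0.17, so an undetected array weighs in the means as a step down whose true size is not known. Zone means were 1.18 ± 0.88 in zone 1, 1.51 ± 1.22 in zone 2, 1.75 ± 0.52 in zone 3 and 1.03 ± 0.75 in zone 4 (log2 units, SD, n = 3 each). They were 0.80 ± 1.09 in zone 5, 0.89 ± 0.62 in zone 6, 0.95 ± 0.68 in zone 7 and 1.16 ± 0.92 in zone 8 (log2 units, SD, n = 3 each).

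Ordered by these means, the zones ran 3, 2, 1, 8, 4, 7, 6 and 5. The largest step between neighbours in that order was 0.33 log2 units, and the whole range of the means was 0.95, against a pooled SD within zones of 0.87. No neighbouring pair therefore differed beyond its spread. The 3 highest means belonged to pericentral zones and the lowest 3 to periportal zones, but the most periportal zone, 8, stood next to the most pericentral zone, 1.

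**Figure D2:**
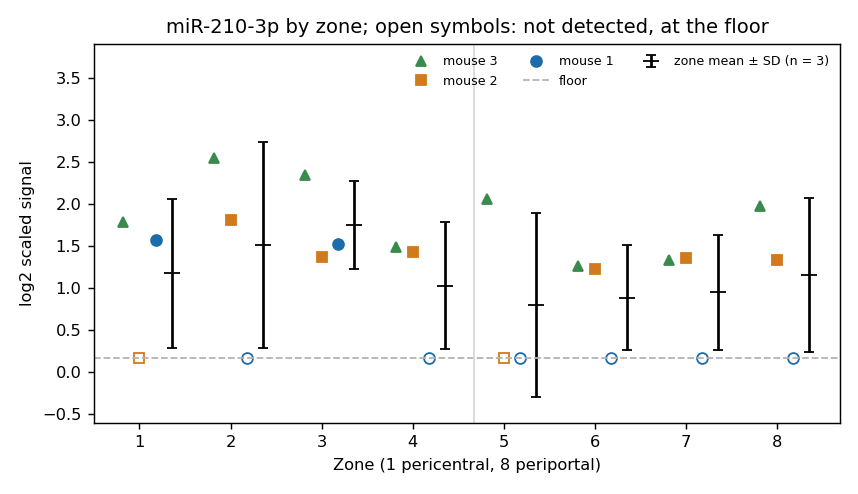
log2 scaled signal of miR-210-3p in each zone, with 1 symbol per mouse, open where undetected and set to the floor (dashed line), and the zone mean ± SD (n = 3) in black. Means lie between 0.80 (zone 5) and 1.75 (zone 3), and the SD bars of all 8 zones overlap.

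Tests across zones were run on 339 miRNAs detected on at least 6 arrays, with 1 fit over 24 arrays, and miR-210-3p passed none of them. The moderated F test over the 8 zones, which called 5.31% of the tested miRNAs, gave miR-210-3p an adjusted p of 1 (limma, F = 0.46). That fit does not pair the zones of a mouse. With mouse as a block F was 1.05 and the test was still not passed (limma adjusted p = 0.601). The log2 signal of miR-210-3p was 1.37 on average in zones 1 to 4, against 0.95 in zones 5 to 8. That difference of 0.42 ± 0.30 log2 units (SE), or 1.34-fold, had a 95% interval of 0.87-fold to 2.07-fold (limma adjusted p = 0.393). The contrast called 7.67% of the tested miRNAs higher and 11.5% lower in zones 1 to 4 (26 and 39 miRNAs, against 8 and 32 without scaling between arrays and 57 and 48 with mouse as a block), and the median difference of all tested miRNAs was 0.08.

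With this scaling and floor, that difference had the same sign in each mouse. It was 0.39 log2 units in mouse 3, 0.17 in mouse 2 and 0.69 in mouse 1. All 4 arrays of zones 5 to 8 of mouse 1 stood at the floor. The sign in mouse 2 depended on the scaling. Its deposited signals, before scaling, had a median over detected arrays of 2.61 in zones 1 to 4 and 2.78 in zones 5 to 8. In an exact permutation of zone labels within mice, over 343000 assignments, the mean difference had a two-sided p of 0.0747. With mouse as a block the interval narrowed to 0.98-fold to 1.81-fold and the test was still not passed (limma adjusted p = 0.142). A pericentral level of 1.81 times the periportal one thus lies at the edge of that interval, which also includes no difference.

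The size of the difference between zones 1 to 4 and zones 5 to 8 depended on what stood in for the undetected arrays. With the lowest detected signal of each miRNA as its own floor the difference was 0.24 log2 units (limma adjusted p = 0.278), and with a floor 4 times lower it was 0.75 (adjusted p = 0.513). With undetected arrays left out it was 0.26 (adjusted p = 0.384).

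**Figure D3:**
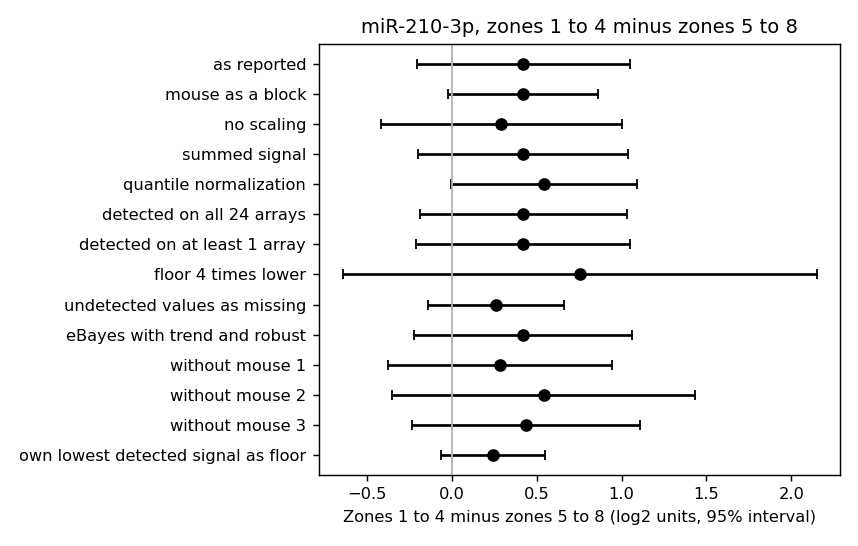
Difference in miR-210-3p between zones 1 to 4 and zones 5 to 8 (log2 units) as reported and under 13 other settings, with 95% intervals from limma. All point estimates lie between 0.24 and 0.75, and every interval includes 0.

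At the ends of the axis the mean levels of miR-210-3p were close, but the mice went opposite ways. Zone 1 was 0.02 ± 0.67 log2 units (SE) above zone 8, with a 95% interval of 0.38-fold to 2.70-fold (limma adjusted p = 0.998), in a comparison that called 5.31% of the tested miRNAs. A block for mouse narrowed that interval to 0.53-fold to 1.95-fold (limma adjusted p = 0.991). Single mice differed in direction: log2 values in zones 1 and 8 were 1.78 and 1.97 in mouse 3, 0.17 (undetected) and 1.33 in mouse 2, and 1.58 and 0.17 (undetected) in mouse 1. The difference was -0.68 without mouse 1 and 0.61 without mouse 2. The slope over the zone number gave a fitted change from zone 1 to zone 8 of -0.48 log2 units, with a 95% interval from -1.45 to 0.50 (limma adjusted p = 0.527). With mouse as a block that interval ran from -1.18 to 0.22. A slope of either sign was called for 16.8% of the tested miRNAs.

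With undetected arrays at the floor, slopes of miR-210-3p differed in sign among the mice. They were -0.09 ± 0.07 log2 units per zone in mouse 3, 0.05 ± 0.10 in mouse 2 and -0.17 ± 0.08 in mouse 1 (SE, 8 arrays of 1 mouse each). Mouse 2 had a slope smaller than its SE, with zones 1 and 5 at the floor. The detected log2 values of mouse 2 were 1.81, 1.37 and 1.43 in zones 2 to 4, and 1.23, 1.36 and 1.33 in zones 6 to 8. In mouse 1 only zones 1 and 3 stood above the floor. The mid-lobule zones 3 to 6 differed from zones 1, 2, 7 and 8 by -0.08 ± 0.34 log2 units (SE, limma adjusted p = 0.987), in a comparison that called 0% of the tested miRNAs in limma, with 13 at an unadjusted p under 0.05. A block for mouse lowered the SE of that difference to 0.22 (limma adjusted p = 0.883). With slide row as a further term and no block, which leaves the slope inside each set of 4 zones, the slope was 0.05 ± 0.14 per zone (limma adjusted p = 0.961).

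miR-210-3p differed between the mice. The log2 scaled signal averaged 1.85 ± 0.47 in mouse 3, 1.11 ± 0.61 in mouse 2 and 0.51 ± 0.64 in mouse 1 (SD over 8 zones each). A moderated F test over mice with zone in the fit gave an adjusted p of 0.00203 (limma, F = 11.9), in a comparison that called 54.3% of the tested miRNAs. Mouse 3 was 1.34 ± 0.27 log2 units (SE) above mouse 1 (limma adjusted p = 0.00205) and 0.74 ± 0.27 above mouse 2 (adjusted p = 0.041). Mouse 2 was 0.60 ± 0.27 above mouse 1 and did not pass (limma adjusted p = 0.0981), and that step shrank to 0.06 ± 0.13 with each miRNA's own lowest signal as its floor (adjusted p = 0.728). Mouse 3 had the highest value in 7 of 8 zones, the exception being zone 7.

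Among detected arrays alone the difference between mice was smaller. With undetected arrays left out, the F test over mice was no longer passed (limma adjusted p = 0.342), and mouse 3 was 0.39 ± 0.18 log2 units above mouse 1 (limma adjusted p = 0.152), while mouse 2 minus mouse 1 was -0.00014 ± 0.19 log2 units (adjusted p = 0.999). With each miRNA's own lowest signal as its floor it was passed (adjusted p = 0.00431), and mouse 3 stood 0.54 ± 0.13 above mouse 1 (limma adjusted p = 0.00707).

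Overall array brightness moved with mouse. The summed signal of all miRNAs was 101436 to 138301 intensity units in mouse 3, 66629 to 106533 in mouse 2 and 57935 to 94526 in mouse 1. The number of miRNAs detected was 289 to 368 in mouse 3, 253 to 325 in mouse 2 and 248 to 299 in mouse 1. The 5 arrays with the fewest detected miRNAs, 248 to 261, were all without detection of miR-210-3p, while the other 3 arrays without it had up to 299. Between lobule sides the median number of detected miRNAs was 296.5 in zones 1 to 4 and 297.5 in zones 5 to 8. Single mice were less even, with medians of 305 and 337.5 in mouse 3, 300.5 and 295 in mouse 2, and 284 and 260 in mouse 1. The part of array brightness in the differences between mice and between lobule sides was not tested.

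**Figure D4:**
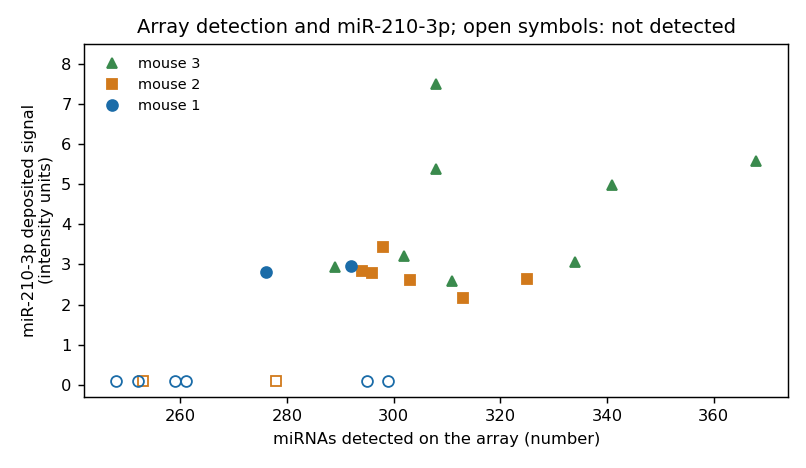
Deposited miR-210-3p signal (intensity units) against the number of miRNAs detected on the same array, with 1 symbol per mouse, open where miR-210-3p was undetected. All arrays with 261 or fewer detected miRNAs lack miR-210-3p, and the highest 4 signals are of mouse 3.

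Hepatocyte miRNAs were detected throughout, and most miRNAs of other cell types on no array, with 1 endothelial miRNA as the main exception. All 5 hepatocyte miRNAs examined, among them miR-122-5p and miR-192-5p, were detected on all 24 arrays. Of 20 miRNAs of endothelial, leukocyte, stellate, erythroid and biliary cells, 18 were detected on no array, including miR-142a-3p, miR-223-3p and miR-451a, and miR-200b-3p was detected on 1. The summed signal of the 20 was 0 to 10.9 intensity units in zones 1 to 4 and 0 to 9.53 in zones 5 to 8. miR-126a-3p, the defining endothelial miRNA, was detected on 16 of 24 arrays, as many as miR-210-3p, at 1.86 to 10.9 intensity units. It was detected on 3 arrays of mouse 3, 5 of mouse 2 and 8 of mouse 1, an order opposite to that of miR-210-3p. Its part in the miR-210-3p result was not tested.

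With the floor as reported, miR-210-3p was among the noisier features of the series. Its residual SD around zone means was 0.87 log2 units, against a median of 0.46 over the 339 tested miRNAs, of which 68 had a larger one. With mouse in the model as well, the residual SD of miR-210-3p was 0.59, against a median of 0.32. This spread includes the step down to the floor on undetected arrays. The SE of the difference between zones 1 to 4 and zones 5 to 8 was 0.30 log2 units with that floor. It was 0.15 with the own lowest signal as the floor, and 0.19 with undetected arrays left out.

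Other miRNAs known to respond to hypoxia in cultured cells were set beside miR-210-3p as a list of 21, of which 14, miR-210-3p included, were detected on enough arrays to be tested. The list was drawn up with earlier results of these data known, so its counts are a description and not a test. In the slope over zones 5 of the 14 rose towards zone 8, against 10.3% of all tested miRNAs, 1 fell, against 6.49%, and 8 did not pass (limma). Of the 5 that rose, miR-193b-3p was detected on 0 of 12 arrays in zones 1 to 4 and 7 of 12 in zones 5 to 8, and miR-27a-3p on 5 and 10. Both met the minimum of 6 arrays only with the periportal arrays, on which they are higher, so their calls are given as a description only. With miRNAs detected on all 24 arrays 3 members rose and 1 fell, and with undetected arrays left out 3 rose and 2 fell. Without zone 8, 3 rose and 1 fell. The median fitted change of the 14 was -0.08 log2 units and that of all tested miRNAs -0.10, and 8 of the 14 changes were negative. Over all tested miRNAs 35 rose and 22 fell, against 36 and 3 without scaling and 49 and 56 with mouse as a block. In the list 5 rose and 0 fell without scaling, and 5 rose and 1 fell with the block. With slide row as a further term 0 of the 14 passed in either direction, as did 0 of all 339 in limma, with 16 at an unadjusted p under 0.05.

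The members past the slope test carry other seeds than miR-210-3p, as does every other miRNA of the RefSeq table. They are shown with the seed in capitals because the pairs miR-27a with miR-27b, miR-26a with miR-26b and miR-103 with miR-107 each share a seed while 1 of each pair passed the slope test. In zones 1 to 4 against zones 5 to 8, both miR-26a-5p and miR-26b-5p were called lower (limma adjusted p = 0.000188 and 0.0204). Differences within these pairs were not tested.
miR-21a-5p: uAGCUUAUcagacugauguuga
miR-23a-3p: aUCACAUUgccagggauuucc
miR-26a-5p: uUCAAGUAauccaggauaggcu
miR-26b-5p: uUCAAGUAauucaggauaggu
miR-27a-3p: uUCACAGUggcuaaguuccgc
miR-27b-3p: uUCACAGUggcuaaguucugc
miR-193b-3p: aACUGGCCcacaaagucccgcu
miR-103-3p: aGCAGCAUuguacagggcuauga
miR-107-3p: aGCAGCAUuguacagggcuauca

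In zones 1 to 4 against zones 5 to 8, 1 of the 14 tested list members was called higher (limma), against 7.67% of all tested miRNAs. Another 6 were called lower, against 11.5%. Among these were miR-193b-3p and miR-27a-3p, which met the minimum number of arrays only with the periportal ones. The 1 called higher was miR-107-3p, known to act on hepatic insulin sensitivity. Its log2 signal was 6.69 to 7.50 on the arrays of zones 1 to 4 and 6.55 to 7.13 on those of zones 5 to 8, and the sets overlap (difference 0.27 ± 0.09, SE, limma adjusted p = 0.0345). Its slope was no longer called with slide row as a term, with unscaled signals, with the summed signal as the scale, without mouse 1 or mouse 3, or without zone 1. miR-21a-5p, a growth-associated miRNA also induced by hypoxia in some cultured cells, went the other way, with 8.55 to 10.11 in zones 1 to 4 and 9.71 to 10.67 in zones 5 to 8, which also overlap. Its difference was -0.78 ± 0.16 (limma adjusted p = 0.00069).

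The difference of miR-210-3p between these sets of zones, 0.42, was larger than the 0.27 of miR-107-3p, but its SE was 0.30 against 0.09. That order depended on the floor. With its own lowest signal as the floor the difference of miR-210-3p was 0.24, and with undetected arrays left out 0.26. Both are below the 0.27 of miR-107-3p, which was detected on all 24 arrays. Only miR-195a-5p, detected on 14 arrays, had a wider interval for the fitted change than miR-210-3p among the 14.

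**Figure D5:**
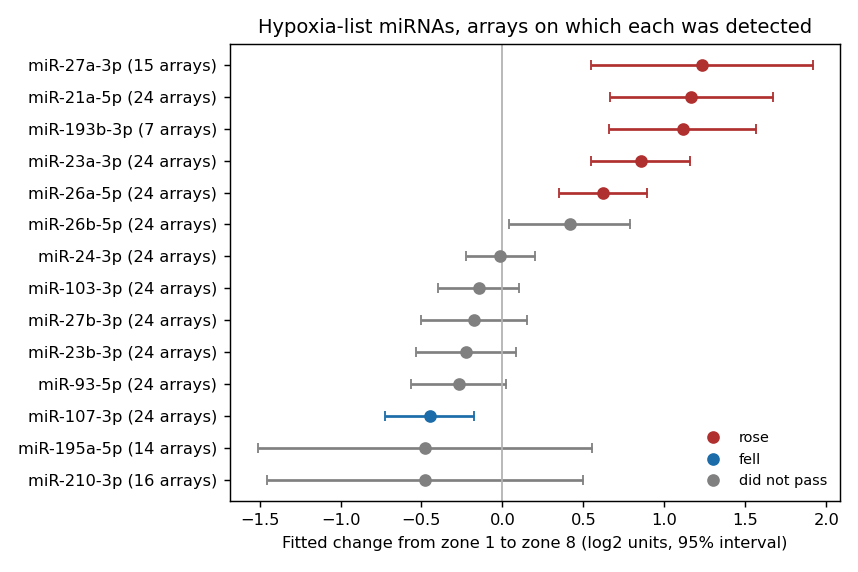
Fitted change from zone 1 to zone 8 (log2 units) with its 95% interval for the 14 tested miRNAs of the hypoxia list, coloured by call, with the number of arrays of detection beside each name. miR-210-3p and miR-195a-5p have the lowest estimates, both -0.48, and the 2 widest intervals, while miR-107-3p, at -0.45, is the 1 member called falling. With its own lowest signal as the floor miR-210-3p stood at -0.36, above miR-107-3p.

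The miRNAs whose profile over arrays was most like that of miR-210-3p were sought among 299 tested miRNAs that shared at least 8 arrays of detection with it. After subtracting the mean of each mouse, the highest Pearson correlations were 0.72 for miR-6970-5p over 10 arrays, 0.63 for miR-705 over 12, 0.63 for miR-17-3p over 16, 0.55 for miR-1896 over 9 and 0.54 for miR-28a-5p over 16. Without subtracting mouse means the same 5 had correlations of 0.50, 0.33, 0.40, 0.41 and 0.63. These points share array brightness and scaling, and the 5 are the top of a spread that ran down to -0.68, with a median of 0.07.

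Of these 5, miR-17-3p, a strand of the proliferation-associated miR-17 to miR-92 cluster, was the 1 with a called slope, a fitted change of -0.80 ± 0.24 log2 units (SE, limma adjusted p = 0.0194). Within the hypoxia list the closest were miR-195a-5p, with 0.53 over 13 arrays, and miR-107-3p, with 0.40 over 16, and the farthest was miR-23a-3p, with -0.49 over 16.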

How the data were processed

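The members, lists and tests were chosen with earlier results of these data known. Each deposited file holds, per miRNA, a total gene signal as a linear intensity, its error and a detection call of 1 or 0, from Cy3-labelled total RNA on an Agilent miRNA array, per the labels' protocols. The submitters' processing notes name Agilent Feature Extraction, and its version is not given in these sources. Control features (21) were left out.

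Each array was scaled so that its 75th percentile, taken over the 198 miRNAs that every array detected, equalled the mean of that percentile over arrays. Values below 1.12, the median of the arrays' lowest scaled detected signals, were set to it before log2. Fits used limma 3.58.1 in R 4.3.3 over 339 miRNAs with no block, and were adjusted by Benjamini-Hochberg (threshold 0.05, two-sided). The slope fit had been tried on simulated data without undetected arrays or a floor. That trial does not cover a miRNA undetected on some arrays, such as miR-210-3p. Zone tests rest on 3 mice, which limits the precision.

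Mouse numbers pair the arrays, since the 8 populations of a number came from 1 animal, per the labels. Deviations from zone means had a median correlation of 0.61 within a mouse. Mouse as a block, other scalings, filters and floors, slide row, and leaving out mice or end zones were tried. The floor at each miRNA's own lowest signal was added after the data were seen. Named miRNAs were the arms of miR-210, hypoxia list members and the 5 with the highest within-mouse correlation, and the cell type markers. Sequences are from RefSeq, which held 13 of the 14 tested list members. Figures were drawn with matplotlib 3.10.9.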

Additional observations from a re-analysis of the deposited data

Results flagged for a closer look

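In mouse 2 the detected scaled signal of miR-210-3p in zone 2, 3.52, stood apart from its other 5 detected values, which ran from 2.35 to 2.70. The gap to the nearest of them was 0.654 of the range on the log2 scale, above Dixon's critical value of 0.625 for 6 values, a mark that chance passes in about 1 of 20 groups. The deposited error of that value was 20.5% of its signal. In mouse 3 the same ratio was 0.159. The cause was not tested.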

How the results depend on the processing

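No setting brought miR-210-3p past a test across zones. For zones 1 to 4 minus zones 5 to 8, all 14 alternatives kept the sign, with 0.24 to 0.75 log2 units. Mouse as a block, the detection filters, a changed variance model and the permutation could not move that estimate. In the filter of detection on all 24 arrays miR-210-3p was kept, although detected on 16. The limma adjusted p ran from 0.142 with mouse as a block to 0.787 without scaling. The permutation, of miR-210-3p alone and unadjusted, gave a p of 0.0747. The lowest unadjusted limma p was 0.0518, with quantile normalization. Without each mouse in turn the difference was 0.28 to 0.54, the slope -0.13 to -0.02 per zone, the F value 0.40 to 0.74, the mid-lobule difference -0.12 to -0.06 and the difference in detected arrays 0 to 2. Zone 1 minus zone 8 was -0.68 to 0.61, turning negative without mouse 1 (-0.68), and was -0.19 without scaling, where the median of all miRNAs in that contrast was -0.31, against 0.01 as reported. The slope turned to 0.047 with slide row as a term, and the mid-lobule difference to 0.026 with the summed signal. The cause was not tested. The difference between mice was lost in 1 of 9 alternatives, with undetected arrays as missing (F = 1.53). That fit has 16 values of miR-210-3p in place of 24. With mouse as a replicate block the slope of miR-210-3p was -0.07 per zone (limma adjusted p = 0.304), and the block changed no call of miR-210-3p. Over all 339 miRNAs the block gave 105 slope calls (49 rising and 56 falling), against 57 (35 and 22), 105 in zones 1 to 4 minus zones 5 to 8, against 65, 33 between zones 1 and 8, against 18, and 31 in the F test, against 18, and the hypoxia list kept 5 rising and 1 falling. List calls were 6 in all, 4 to 6 without each mouse and 0 with slide row as a term. Rising list calls were 3, against 5, with miRNAs detected on all 24 arrays, which leaves fewer members tested, and 3, with 2 falling, with undetected values as missing. Detection near the lowest signals limits miR-210-3p.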
